A study of Mus musculus with 28 samples.

Results

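The interferon response genes described here are 36 genes that mammalian cells switch on when they meet interferon, and their RNA was measured in mouse liver on Agilent whole-genome arrays. They were chosen by name: a probe belonged to the set if the gene name in the scanner files was one of the 36, and the brightest kept probe stood for each gene. All 36 were measured, among 21851 genes tested in all. Of their 55 probes, 52 were well above background on at least 5 arrays and were kept, and 14 of the genes had several probes.

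Each of 28 arrays held the liver RNA of 1 male C57/6J mouse. The mice started at 7 weeks of age, stayed on their diets for 26 weeks and were 33 weeks old at the end. A standard diet (SD) was given to 5 mice and a high fat diet without supplement (HFD) to 6. The other 3 groups ate the same high fat diet with a plant polyphenol mixed in: the flavonol quercetin at 0.4% (HQ, 5 mice), the stilbene resveratrol at 0.4% (HR, 6 mice), or 0.2% of each (HQR, 6 mice). The labels name no transgene, interferon treatment or infection. Of 30 mice, 2 had RNA that was too degraded to hybridise.

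Type I interferons bind a receptor that activates the kinases Jak1 and Tyk2. The complex ISGF3, which holds Stat2 and Irf9, then binds the interferon-stimulated response element (ISRE) in the promoters of its target genes, while interferon gamma works through the gamma-activated site (GAS). In the liver, hepatocytes, Kupffer cells (the resident macrophages) and sinusoidal endothelial cells all respond to interferon, and most of these genes are known as defences against viruses and intracellular microbes.

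Promoters are shown for the 4 members that, among those with an ISRE match, moved most closely with the other members, and for 1 without a match. RefSeq sequence (build GRCm38.p6) before the gene start was found for 28 of the 36 genes. The ISRE was searched as GAAANNGAAA and the GAS as TTCNNNGAA, on both strands, over the 250 bases before each start. An ISRE match was found for 13 of the 28 members (46.4%) and for 3.46% of all 27025 genes with such a window. A GAS match was found for 7 members (25%) and for 8.13% of all genes. The motifs can overlap, and did so in 1 member window, that of Bst2. Capitals mark the matches, and each window is written 5′ to 3′ on the strand of its gene. These 4 windows hold an ISRE match: Ifit3 at chr19:34583279-34583528 (plus strand), Oas1a at chr5:120907526-120907775 (minus strand), Gbp3 at chr3:142559794-142560043 (plus strand) and Ifit1 at chr19:34640639-34640888 (plus strand).
Ifit3: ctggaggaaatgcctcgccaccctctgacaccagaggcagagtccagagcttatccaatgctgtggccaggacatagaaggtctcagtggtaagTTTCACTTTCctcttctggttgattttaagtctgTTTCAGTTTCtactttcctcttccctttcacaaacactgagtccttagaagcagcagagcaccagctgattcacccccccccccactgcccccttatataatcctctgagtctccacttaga
Oas1a: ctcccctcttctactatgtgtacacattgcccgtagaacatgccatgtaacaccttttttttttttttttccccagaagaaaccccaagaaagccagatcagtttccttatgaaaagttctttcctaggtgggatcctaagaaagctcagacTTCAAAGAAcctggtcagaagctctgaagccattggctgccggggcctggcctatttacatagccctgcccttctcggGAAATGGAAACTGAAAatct
Gbp3: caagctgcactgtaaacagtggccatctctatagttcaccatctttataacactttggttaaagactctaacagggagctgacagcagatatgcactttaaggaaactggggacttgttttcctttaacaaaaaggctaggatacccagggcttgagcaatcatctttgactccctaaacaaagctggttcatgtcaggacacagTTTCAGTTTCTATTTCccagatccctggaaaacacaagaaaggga
Ifit1: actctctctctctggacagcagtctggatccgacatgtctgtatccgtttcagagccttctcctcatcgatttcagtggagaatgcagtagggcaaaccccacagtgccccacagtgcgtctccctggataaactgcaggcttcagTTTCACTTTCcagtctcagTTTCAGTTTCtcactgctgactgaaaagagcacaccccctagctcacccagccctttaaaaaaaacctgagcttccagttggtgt

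Ifit3 and Ifit1 each have 2 separate ISRE matches, both written as the reverse complement. In Oas1a and Gbp3 the 2 matches overlap each other close to the start, and Oas1a also has a GAS match further up. Xaf1 and Oasl2, which moved as closely with the others, hold neither motif in their windows. That of Oasl2 is shown (chr5:114896684-114896933, plus strand).
Oasl2: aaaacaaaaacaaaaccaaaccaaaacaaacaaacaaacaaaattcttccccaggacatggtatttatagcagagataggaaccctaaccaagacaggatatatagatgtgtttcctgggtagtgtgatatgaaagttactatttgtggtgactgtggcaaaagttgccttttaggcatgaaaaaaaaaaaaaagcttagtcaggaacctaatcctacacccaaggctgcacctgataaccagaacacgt

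Tap1 and Psmb9 face away from each other on chromosome 17, and 225 bases lie between their starts. That stretch is shown on the plus strand (chr17:34187331-34187555), since the levels of these genes moved together. It held no match to either motif as spelled here.
Psmb9 to Tap1: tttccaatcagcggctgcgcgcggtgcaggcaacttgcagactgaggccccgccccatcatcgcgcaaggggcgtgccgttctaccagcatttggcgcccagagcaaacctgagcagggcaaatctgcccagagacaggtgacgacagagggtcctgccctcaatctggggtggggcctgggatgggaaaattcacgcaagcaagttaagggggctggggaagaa

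Values are log2 signals relative to the 75th percentile of each array, so a value of 0 is at that percentile and a difference of 1 is a doubling. Each probe binds with its own strength, so a value is compared between livers and never between genes. Arrays had 59.3% to 82.1% of probes well above background. They lay on 9 slides with 1 to 4 arrays each. Slides mostly held several diets, and HQ replicate 3 was alone on slide 4. Hepatocyte markers were bright in every liver, with a mean over 4 genes of 6.20 to 7.57, and all 4 were above background on all arrays. All members except Oas3 and Tap1 were well above background in every liver. Oas3 was above it in 15 livers and Tap1 in 27. The Iigp1 spot of HQ replicate 1 was rejected by the scanner software and left out of its fits. Markers of plasmacytoid dendritic cells, the main producers of interferon alpha, averaged -4.37 to -2.57 over 5 genes, and 2 or 3 of the 5 were above background on all arrays of a group. In a whole liver, fewer cells of a type and less RNA per cell cannot be told apart.

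No member passed the test in any comparison of diets. In limma's fit of all 28 arrays, 0 of 36 members had an adjusted p (Benjamini-Hochberg, 21851 genes) under 0.05 for any difference among the 5 groups, where 0.105% of all genes did. Before adjustment 2 of 36 members were under 0.05 in that test, Oas1a and Xaf1. The share of all genes under it was not counted, so these 2 are not read as standing out. In the 10 comparisons of 2 groups, 0 of 36 members passed as well. The share of all genes that passed was 0.114% for HFD against SD, 0% for HQ against HFD, 0.00915% for HR against HFD and 0% for HQR against HFD. It was 0% for HQ against HR, for HQR against HQ and for HQR against HR. Against SD it was 0.0366% for HQ, 0.0549% for HR and 0.0503% for HQR. The lowest adjusted p of a member was 0.469, for Usp18 in HQR against SD.

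Most members had a lower mean in HFD than in SD. That was so for 25 of 36, and 11 of 36 were above 0, where 44.6% of all genes were. The median difference was -0.09 beside -0.04 over all genes. At an unadjusted p under 0.05 there was 1 member, Oas1a, or 1 in 36 beside 6.14% of all genes. All 4 transcription factors and all 5 synthetases had lower means in HFD, and both chemokines had higher ones. With slide as a block 15 of 36 members were above 0, and the median was -0.04, beside -0.09 over all genes. In that fit 4 of 36 members were under an unadjusted 0.05, beside 11.1% of all genes, and 0 passed the test. Within 4 slides that held SD and HFD arrays, the median was -0.14 to 0.03.

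With quercetin in the high fat diet, most members had a higher mean than with the high fat diet alone. That was so for 31 of 36, with a median difference of 0.22, where 49.1% of all genes were above 0 with a median of 0.00. At an unadjusted p under 0.05 there were 4 members, all higher in HQ (Xaf1, Zbp1, Oas1a and Gbp3), beside 2.13% of all genes. With slide as a block 19 of 36 were above 0 and the median was 0.04, below the 0.06 of all genes in that fit. It was -0.10 within slide 1 and 0.43 within slide 7, the slides that held both groups. Sinusoidal endothelial markers were higher in HQ for 6 of 6 genes, with a mean of 1.52 to 2.02 in HQ and 0.55 to 1.90 in HFD. Kupffer markers were higher for 6 of 7, with -1.07 to -0.07 and -1.28 to -0.34. The other Kupffer marker differed by -0.96, where the largest rise was 0.38. It alone of the 7 was under an unadjusted limma p of 0.05. The part of these markers in the result was not tested.

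Resveratrol gave no common direction. Of 36 members, 21 had a higher mean in HR than in HFD, and the median difference was 0.03 beside 0.01 over all genes. At an unadjusted p under 0.05 there were 3 members, all higher in HR (Oas1a, Oas2 and Stat2), beside 4.92% of all genes. The slide-blocked median was -0.08, beside 0.05 over all genes, with 7 of 36 members under an unadjusted 0.05 beside 11.1% of all genes, and 0 past the test. Within 4 slides the median was -0.38 to 0.31. Sinusoidal endothelial markers were higher in HR for 6 of 6 genes (1.83 to 2.36 in HR, 0.55 to 1.90 in HFD) and Kupffer markers for 7 of 7 (-0.58 to 0.62 in HR), which was not tested as a source of the 3 differences.

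With the mixture of both compounds most members had lower means. Against HFD, 12 of 36 members were higher in HQR, with a median of -0.06 beside 0.05 over all genes. Cxcl10 and Ifit1, both lower, were under an unadjusted p of 0.05, which 1.36% of all genes were. Against HQ the difference was wider: 32 of 36 members were lower in HQR, with a median of -0.41 beside 0.04 over all genes. At an unadjusted p under 0.05 there were 8 members, all lower (Zbp1, Eif2ak2, Usp18, Xaf1, Gbp3, Rsad2, Oas1a and Mx2), beside 1.43% of all genes. With slide as a block 5 of 36 were above 0 and the median was -0.21, beside -0.06 over all genes, and 2 members were under 0.05, beside 2.43% of all genes. It was -0.28 within slide 1 and -0.17 within slide 2. Endothelial markers averaged 1.42 to 2.08 in HQR and Kupffer markers -0.81 to -0.20. Against HFD, 6 of 6 endothelial and 6 of 7 Kupffer markers had higher means in HQR, while most members had lower ones. Against HQ, 3 of 6 and 3 of 7 were higher in HQR. The part of these markers was not tested. The comparisons with HFD and with HQ share arrays, so they are no separate evidence of one pattern.

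Quercetin and resveratrol were given at the same dose, 0.4%, for the same time. Of 36 members, 30 had a higher mean in HQ than in HR, with a median difference of 0.25 beside -0.01 over all genes. With slide as a block the median was 0.09, where all genes had 0.02, and within 3 slides it was -0.09 to 0.21. At an unadjusted p under 0.05 there were 2, Psmb9 and Ifih1, beside 1.29% of all genes. All 6 endothelial and all 7 Kupffer markers had lower means in HQ than in HR, and their part was not tested. HQR against HR had 28 of 36 members lower, with a median of -0.15 beside 0.04 over all genes. In that comparison 1 member was under an unadjusted 0.05, beside 2.77% of all genes. With slide as a block 14 of 36 members were above 0 for HQR minus HR, with a median of -0.13 beside -0.05 over all genes. Within slides 2, 6 and 8 the median was -0.22, -0.48 and 0.03. Against SD the medians were 0.08 for HQ, -0.09 for HR and -0.19 for HQR, beside -0.05, -0.05 and 0.01 over all genes. Members under an unadjusted 0.05 were 2 in HQ, 0 in HR and 5 in HQR, beside 3.91%, 5.72% and 6.43% of all genes. With slide as a block the medians against SD were 0.04, -0.04 and -0.16, beside -0.04, -0.06 and -0.10 over all genes.

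**Figure D1:**
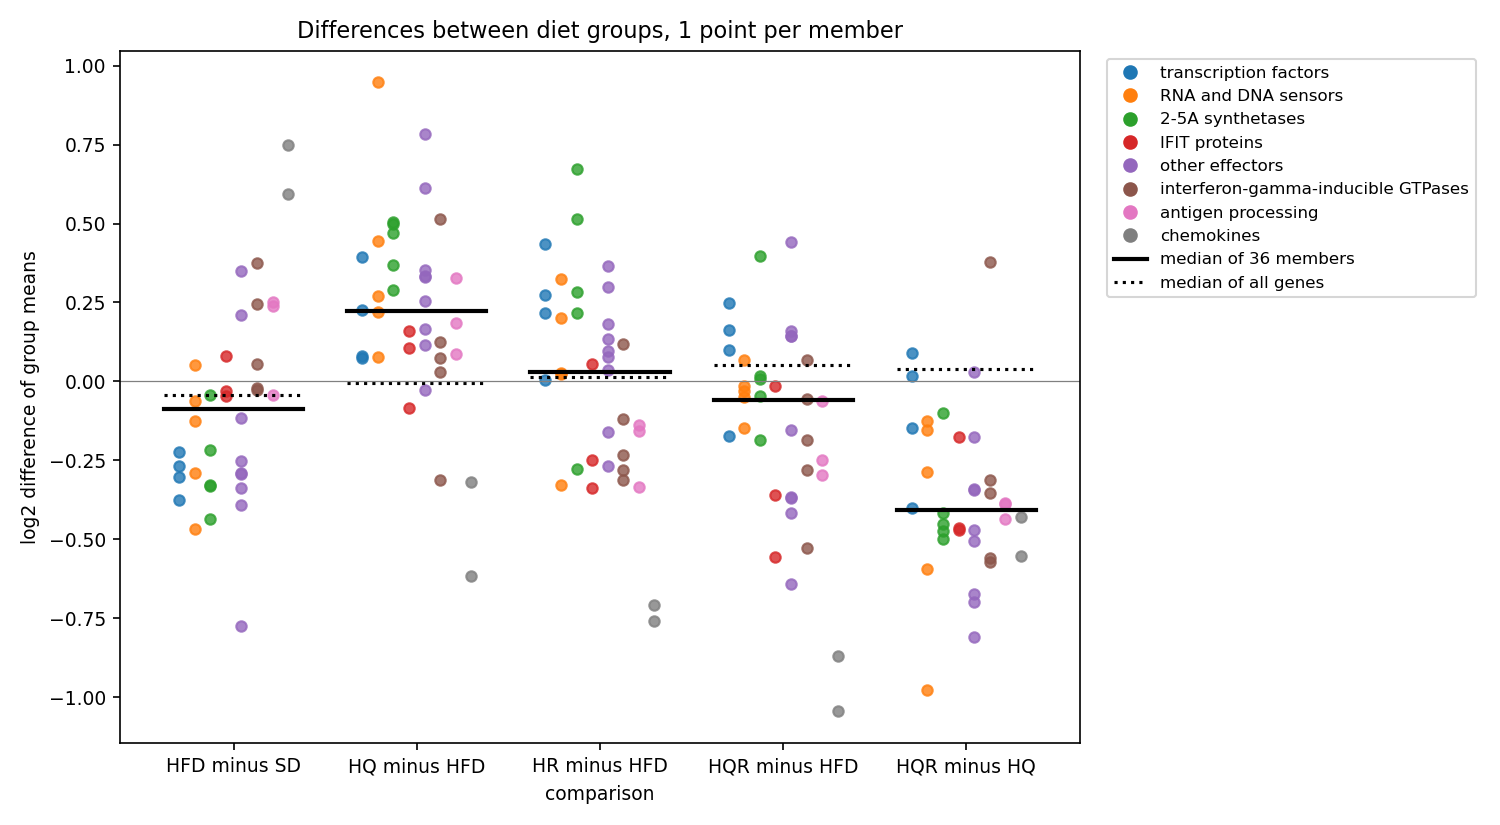
Log2 difference of group means (vertical axis) for each of 36 members in 5 comparisons (horizontal axis), coloured by role. Thick lines are the member medians and dotted lines the medians of all genes. The member median is 0.22 for HQ minus HFD and -0.41 for HQR minus HQ, and the 2 chemokines lie at the opposite side from most members in the first 3 comparisons.

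Averaged over the 35 members measured in every liver, the level was 0.51 ± 0.22 in SD (SD, n = 5), 0.41 ± 0.11 in HFD (SD, n = 6), 0.65 ± 0.19 in HQ (SD, n = 5), 0.42 ± 0.23 in HR (SD, n = 6) and 0.27 ± 0.12 in HQR (SD, n = 6). The 5 HQ livers stood at 0.38, 0.59, 0.90, 0.72 and 0.68. The HQR livers ran from 0.16 to 0.45 with a median of 0.22. The lowest HQ liver, replicate 1, lay inside the HQR range, and the other 4 lay above it. SD livers ran from 0.24 to 0.82 and HR livers from 0.09 to 0.67, and each overlapped every other group. HQ had the highest mean of the 5 groups for 21 of 36 members and the lowest for none. HQR had the lowest for 19 and the highest for 1, Iigp1. These ranks use means without the slide block, and the share over all genes was not counted. With slide as a block, 19 of 36 members were higher in HQ than in HFD, and 5 of 36 higher in HQR than in HQ.

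**Figure D2:**
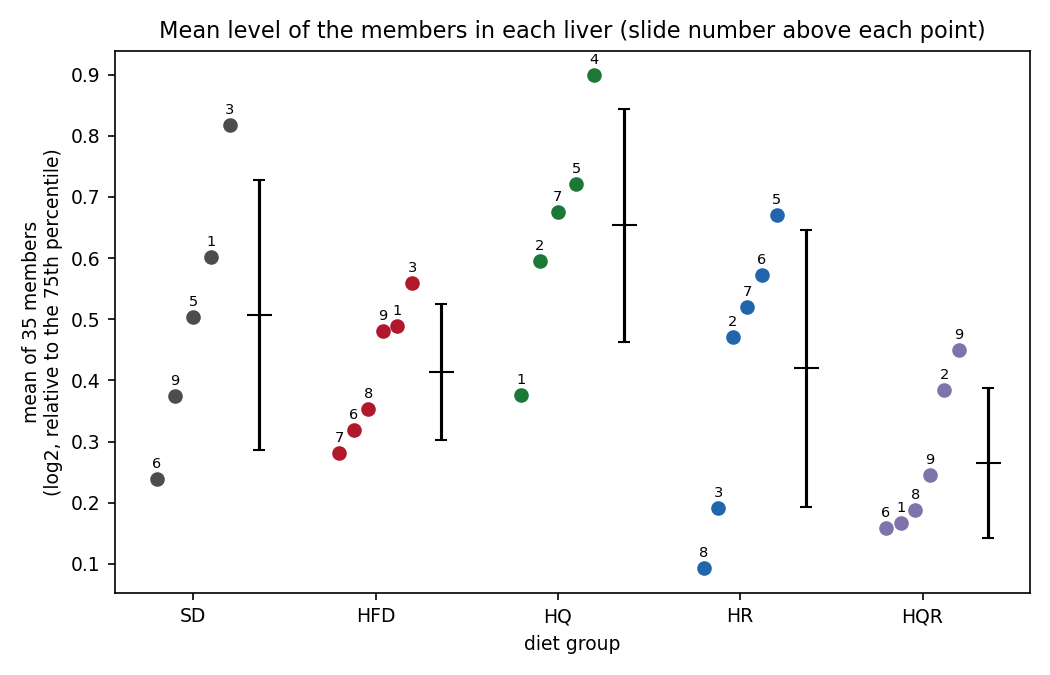
Mean log2 level of the 35 members measured in every liver (vertical axis), by diet group (horizontal axis). Points are livers with the slide number above each, and bars are the group mean and SD. HQ livers run from 0.38 to 0.90 and HQR livers from 0.16 to 0.45, and the HQ liver on slide 1 lies within the HQR range.

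Of the transcription factors, Stat2 is a subunit of ISGF3 that switches on transcription and Irf9 its DNA-binding subunit, Irf7 drives the interferon genes themselves, and Irf1 is an early target of interferon gamma. All 4 had their mean in HFD below that in SD, and all 4 had higher means in HQ and in HR than in HFD, with 0 of 4 passing the test. For Irf1 the difference of HR minus HFD was only 0.004. With slide as a block 2 of 4 were above 0 for HQ minus HFD and 3 of 4 for HR minus HFD. The SD livers had Stat2 levels of 4.30, 4.60, 3.92, 3.95 and 4.80, and the HQ livers 4.52, 4.47, 4.08, 4.16 and 4.43. HFD livers ran from 3.59 to 4.25 with a median of 3.95, HR livers from 4.02 to 4.80 with 4.38, and HQR livers from 3.68 to 4.76 with 4.12. HFD was the lowest group, and its upper livers overlapped every other group. The Stat2 difference of HR minus HFD was 0.43 ± 0.19 (SE; limma adjusted p = 0.966), the slide-blocked value was 0.54, and that of HFD minus SD was -0.38 ± 0.20 (SE; adjusted p = 0.852).

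Irf9 had means of 2.61 ± 0.30 in HR (SD, n = 6) and 2.22 ± 0.30 in HQR (SD, n = 6), a difference of -0.39 ± 0.19 for HQR minus HR (SE; limma adjusted p = 1.00). Its HQ livers kept within 2.36 to 2.81, and HQR ran from 1.71 to 2.61, so the ranges met. Irf7, the amplifier, had group means from -1.21 in HFD to -0.91 in SD, with SDs of 0.24 to 0.46. Irf1 had means from 4.86 in HFD to 5.13 in SD, with SDs of 0.20 to 0.66. For both genes the ranges of the diets overlapped. The second Irf1 probe gave -0.06 for HQ minus HFD and -0.05 for HR minus HFD, and the second Irf9 probe -0.08 for HR minus HFD, so these directions depend on the probe.

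Among the sensors, Zbp1, which binds nucleic acids in the Z form and can trigger cell death, showed the widest differences. The 5 HQ livers had Zbp1 levels of 1.97, 2.32, 2.31, 2.08 and 2.31. HFD livers ran from 0.26 to 1.89 (median 1.42), HQR livers from 0.09 to 1.91 (median 1.29) and HR livers from 0.06 to 2.43 (median 1.81), and SD livers had 1.41, 2.16, 2.12, 1.32 and 1.57. Every HQ liver was thus above every HFD and every HQR liver, while SD and HR overlapped HQ. The difference was 0.95 ± 0.35 for HQ minus HFD (SE; 95% interval 0.23 to 1.67; 1.93-fold; limma adjusted p = 1.00) and -0.98 ± 0.35 for HQR minus HQ (SE; 95% interval -1.70 to -0.26; adjusted p = 1.00). The slide-blocked differences were 0.73 and -0.77. Of 36 members, 1 had groups that did not overlap in each of these comparisons, Zbp1 itself, and no overlap was seen for 0.165% and 0.137% of all genes. The Zbp1 probe lies at chr2:173032113-173032170 (build mm9).

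The spread of Zbp1 was wide within HFD, HR and HQR. The lowest livers were HR replicate 6 at 0.06, HQR replicate 4 at 0.09, HFD replicate 4 at 0.26 and HFD replicate 5 at 0.79. HR replicate 6, HQR replicate 4 and HFD replicate 5 shared slide 8, whose arrays had 79.3% to 82.1% of probes well above background, the highest of all slides. Over the 28 livers the deviations of Zbp1 from the group means had r = -0.63 with that percentage. Its part in the differences was not tested.

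Eif2ak2, the kinase PKR that halts translation when it meets double-stranded RNA, followed Zbp1 in its group order. Its HQ livers had levels of -1.30, -1.29, -1.34, -0.95 and -1.73, HQR livers ran from -2.45 to -1.61 with a median of -1.81, and HR livers from -2.13 to -1.33 with -1.77. The HQ liver at -1.73 was the only one within the HQR range. The difference was -0.59 ± 0.22 for HQR minus HQ (SE; limma adjusted p = 1.00; -0.40 with slide as a block) and 0.42 ± 0.22 for HQ minus HR (SE; adjusted p = 1.00).

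Ifih1 (MDA5) and Ddx58 (RIG-I) recognise viral RNA in the cytosol, and Dhx58 (LGP2) tunes them. Ifih1 was the member with the smallest spread between livers of one diet, with a residual SD of 0.28. Its HQ livers had 0.28, 0.32, 0.33, 0.54 and 0.06, and HR livers ran from -0.76 to 0.28 with a median of -0.02. HQ minus HR was 0.40 ± 0.18 (SE; limma adjusted p = 1.00), or 0.34 when blocked by slide. HR minus SD was -0.28 ± 0.18 (SE; adjusted p = 1.00). For HR minus HFD the probe used gave -0.33 and the second Ifih1 probe 0.08. That second probe gave 0.10 for HQ minus HFD, so the low level in HR depends on the probe. Ddx58 means ran from 0.90 in HFD to 1.19 in SD, and Dhx58 means from 1.32 in HQR to 1.60 in HQ, with SDs of 0.16 to 0.38 and 0.20 to 0.47.

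The 2-5A synthetases make short oligoadenylates that activate the RNA-cutting enzyme RNase L. Of the 5 genes of this family, Oasl1 lacks that activity. All 5 had lower means in HFD than in SD, all 5 had higher means in HQ than in HFD, 4 of 5 in HR than in HFD, and none passed the test. Oas1a livers in SD had levels of -0.25, -0.06, -0.59, -1.27 and -0.83, and those in HQ -0.82, -0.46, -0.38, -0.63 and -0.36. HFD livers ran from -1.30 to -0.65 (median -1.04), HR livers from -0.96 to -0.20 (median -0.49) and HQR livers from -1.72 to -0.71 (median -0.94). HFD and HQR formed the lower pair and HQ and HR the higher, with livers in common between any 2 groups.

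Oas1a appeared among the 3 members with the smallest p in 4 comparisons. HFD minus SD was -0.43 ± 0.20 (SE; limma adjusted p = 0.796), HQ minus HFD 0.51 ± 0.20 (SE; adjusted p = 1.00) and HR minus HFD 0.51 ± 0.20 (SE; adjusted p = 0.939). HQR minus HR was -0.51 ± 0.20 (SE; adjusted p = 1.00). The first 3 share the HFD arrays and are not separate evidence. Blocked by slide they were -0.32, 0.36 and 0.51, and HQR minus HR was -0.49. The Oas1a probe lies at chr5:121348348-121348407 (mm9).

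Oas2 resembled Oas1a. Its SD livers had 1.90, 1.80, 0.36, 0.10 and 1.37, a wider span than any other diet, HFD livers ran from 0.24 to 1.27 (median 0.89) and HR livers from 1.07 to 1.90 (median 1.43). HR minus HFD was 0.67 ± 0.28 (SE; limma adjusted p = 0.946), or 1.59-fold, and 0.76 with slide as a block. Oasl2, another synthetase, had means from -0.24 in HFD to 0.23 in HQ with SDs of 0.16 to 0.67. Oasl1, a relative without synthetase activity that restrains Irf7, had SD livers at 0.60, 0.58, 1.26, 0.58 and -0.06, and HR livers from -0.75 to 0.98 with a median of -0.22. HR minus SD was -0.61 ± 0.33 (SE; adjusted p = 0.951). Oas3, the largest synthetase, was near background with means of -4.30 to -3.89 and SDs of 0.58 to 1.30, and it was well above background in 2 to 5 livers of each group.

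IFIT proteins bind viral RNA and block its translation. Ifit1 recognises RNA without the host's cap methylation, and Ifit3 binds and steadies it. All 3 had lower means in HQR than in HFD and than in HQ. For Ifit2 the difference from HFD was only -0.02, and its second probe gave 0.17. The SD livers had Ifit1 at -1.16, -0.83, -1.24, -1.95 and -1.30, HFD livers ran from -1.82 to -0.75 (median -1.48) and HQR livers from -2.40 to -1.15 (median -1.97). The groups overlapped, and the lowest HQR liver lay below all HFD and SD livers. HQR minus HFD was -0.55 ± 0.26 (SE; limma adjusted p = 0.987), HQR minus SD -0.60 ± 0.27 (SE; adjusted p = 0.733) and HR minus SD -0.38 ± 0.27 (SE; adjusted p = 1.00). Blocked by slide, the first was -0.43 and the next -0.38. Ifit3 means ran from 0.50 ± 0.21 in HQR (SD, n = 6) to 0.97 ± 0.35 in HQ (SD, n = 5), and Ifit2 means from -3.01 in SD to -2.77 in HQ.

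Of the other effectors, Xaf1 promotes cell death by binding XIAP. It had the widest spread of group means relative to the spread of livers, 2.18 residual SDs. The HQ livers had Xaf1 levels of 0.57, 1.01, 0.80, 0.44 and 0.60, and SD livers 0.76, 0.35, 0.39, 0.08 and 0.03. HFD livers ran from -0.37 to 0.49 (median 0.07), HR livers from -0.13 to 0.76 (median 0.41) and HQR livers from -0.09 to 0.44 (median 0.27). The lowest HQ liver, at 0.44, was below the highest HFD liver, and the other 4 were above all of HFD and HQR. HQ minus HFD was 0.61 ± 0.18 (SE; 95% interval 0.24 to 0.99; 1.53-fold; limma adjusted p = 1.00), or 0.34 when blocked by slide. HQ minus SD was 0.36 ± 0.19 (SE; adjusted p = 1.00). The Xaf1 probe is listed at chr11:72120129-72122142 (mm9), a span longer than the probe.

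Isg15 is a small ubiquitin-like protein that is attached to other proteins, and Usp18 both removes it and damps the interferon receptor. Usp18 livers in SD had -0.44, -0.20, 0.19, -0.71 and -1.01, and HQ livers -1.06, -0.95, 0.38, -0.44 and -0.40. HQR livers ran from -1.41 to -0.64 with a median of -1.27, and HFD livers from -1.61 to -0.05 with -0.81. In HQR, 5 of 6 livers were at or below -1.20, lower than every SD and HQ liver, and the sixth overlapped both. HQR minus SD was -0.76 ± 0.26 (SE; 95% interval -1.30 to -0.22; limma adjusted p = 0.469), and HQR minus HQ -0.70 ± 0.26 (SE; adjusted p = 1.00). The slide-blocked differences were -0.52 and -0.20. Isg15 had means from -0.57 in HQR to 0.10 in HQ, with SDs of 0.48 to 0.72.

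Rsad2 (viperin) makes a nucleotide that stops viral polymerases. Its SD livers had -0.93, -0.33, 0.33, -0.90 and -1.28, HFD livers ran from -1.64 to -0.02 (median -0.58) and HQR livers from -1.83 to -0.85 (median -1.44). HQR minus SD was -0.76 ± 0.33 (SE; limma adjusted p = 0.716) and HQR minus HFD -0.64 ± 0.32 (SE; adjusted p = 0.987). The ranges of all 3 groups overlapped. The other 2 Rsad2 probes gave -0.40 and -0.16 for HQR minus HFD, and 1 of them had r = -0.27 with the probe used here.

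Mx1 and Mx2 are dynamin-like GTPases that block viral replication, and C57BL/6 mice are known to carry a defective Mx1. Mx1 had the largest spread of all members between livers of a diet (residual SD 1.25), and its levels followed the slide. On slide 1 the 4 livers, from 4 diets, had Mx1 between 0.40 and 2.17. On slide 6 the 4 livers, also from 4 diets, had -2.63 to -1.68. Slide accounted for 88.2% of the variance of Mx1 within diets, beside a median of 55.4% over members and 58.2% over all genes. Mx2 did not share this range: its means ran from 1.92 ± 0.34 in HQR (SD, n = 6) to 2.42 ± 0.24 in HQ (SD, n = 5).

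Bst2 (tetherin) holds budding virus at the cell surface, and it ran opposite to Mx1. Its levels were 1.80 to 3.20 on slide 1 and 4.42 to 5.20 on slide 6, and r between the 2 genes was -0.86 over the 28 livers, or -0.64 with slide as a block. Its group means, 3.42 to 3.86, lay within 1 SD (0.75 to 1.17). Ifi44, whose function is less clear, went with Mx1 (r = 0.75) and had means of -1.31 in HFD to -1.01 in SD. Its second probe gave 0.39 for HFD minus SD and -0.38 for HQ minus HFD, the reverse of the probe used, so no direction is given for Ifi44. Parp14, an ADP-ribosyltransferase, had means of 3.33 in HFD to 3.67 in SD, with SDs of 0.17 to 0.42. The deviations of Mx1 had r = -0.70 and those of Bst2 r = 0.56 with the log2 signal at the 75th percentile of the array. The part of array signal in these patterns was not tested.

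**Figure D3:**
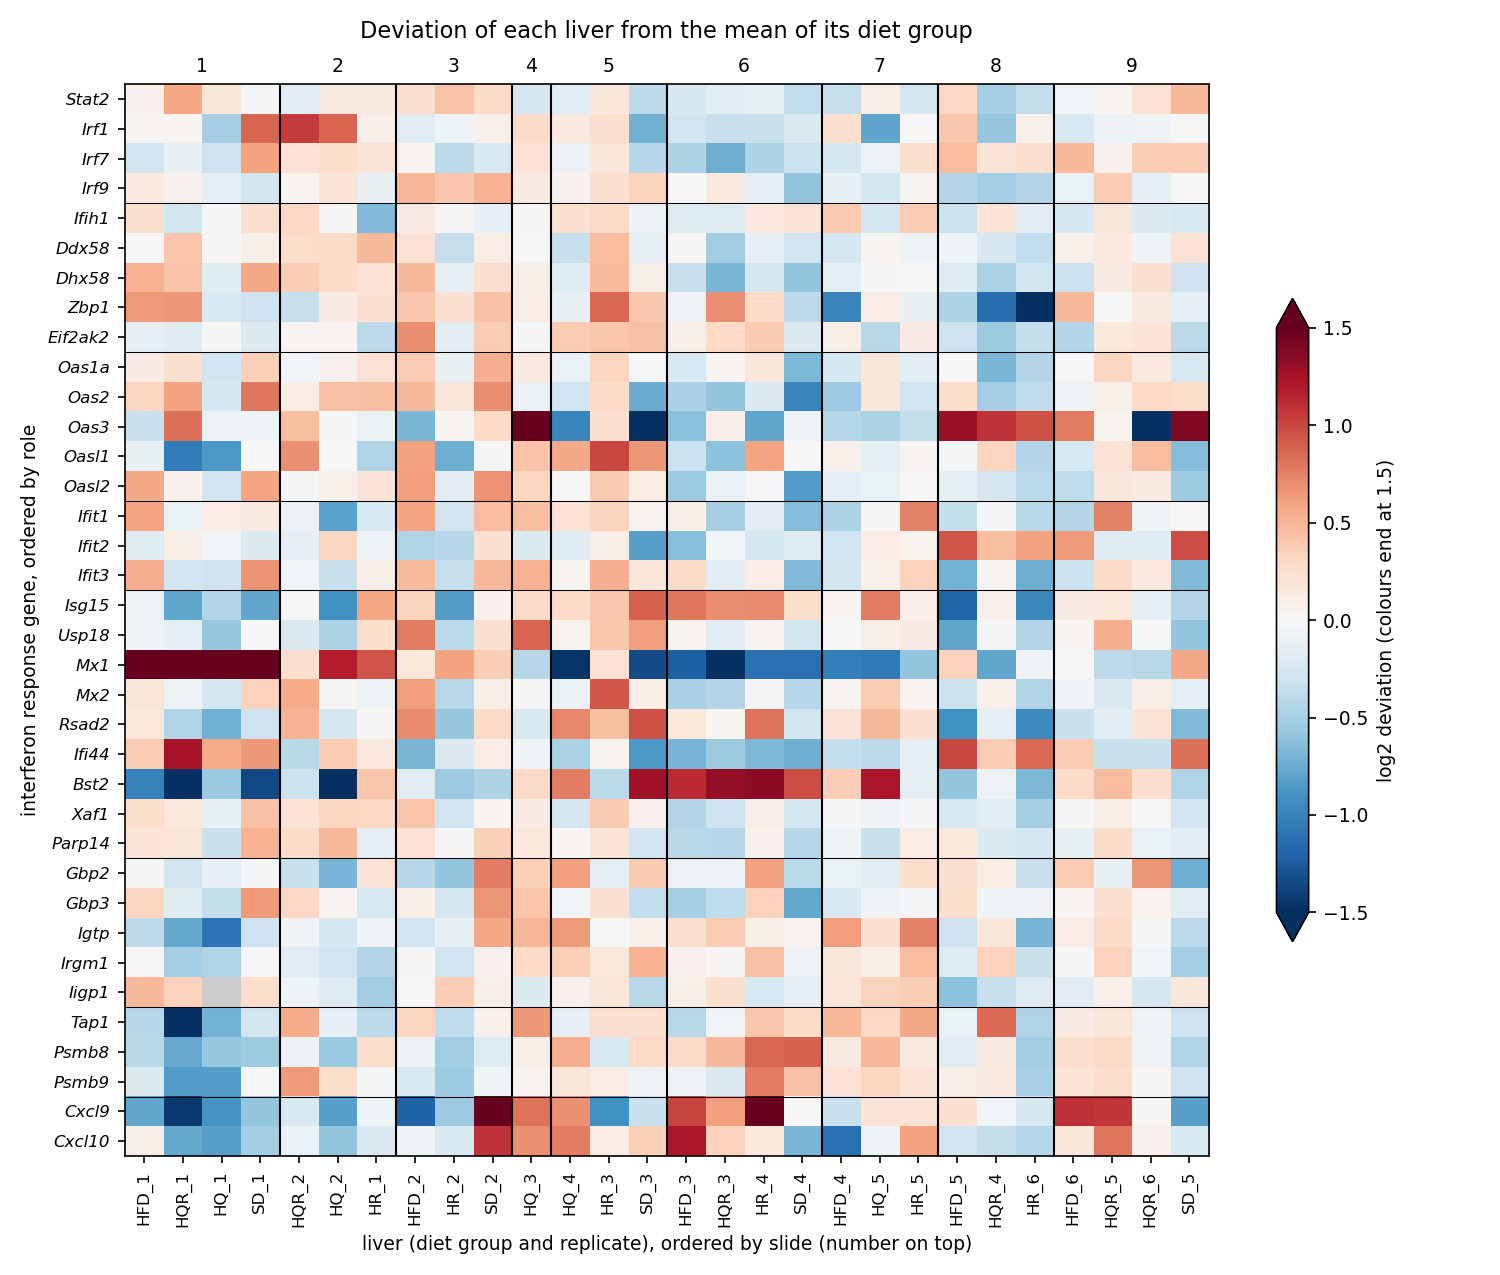
Deviation of each member (rows, ordered by role) in each liver (columns, ordered by slide, with the slide number on top) from the mean of its diet group, on a log2 scale that ends at 1.5. Grey is a rejected spot. Mx1 is high in all 4 livers of slide 1 and low in the 4 of slide 6, whatever their diet, and Bst2 is the reverse.

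The interferon gamma-inducible GTPases attack the vacuoles in which microbes hide. Guanylate-binding protein Gbp3 had HQ livers at 0.80, 1.19, 1.58, 1.12 and 1.11, and SD livers at 1.31, 1.33, 0.30, -0.10 and 0.51. HFD livers ran from 0.15 to 0.96 (median 0.71) and HQR livers from 0.21 to 0.90 (median 0.58). Of the 5 HQ livers, 4 were above all HFD and HQR livers. HQ minus HFD was 0.51 ± 0.22 (SE; limma adjusted p = 1.00) and HQ minus SD 0.49 ± 0.23 (SE; adjusted p = 1.00), with 0.37 and 0.35 in the fit with slide as a block. Its neighbour Gbp2 had means of -1.96 in HR and in HQR to -1.61 in HQ, with SDs of 0.28 to 0.60.

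Iigp1, an immunity-related GTPase that breaks open parasite vacuoles, was the only member whose highest mean was in HQR. SD livers had 6.49, 6.32, 5.81, 6.10 and 6.39, the 4 measured HQ livers 6.09, 6.08, 6.35 and 6.62, HFD livers ran from 5.98 to 7.08 (median 6.65), HR livers from 5.77 to 6.66 (median 6.28) and HQR livers from 6.32 to 7.00 (median 6.67). The medians of HFD and HQR were the highest, and all groups overlapped. HFD minus SD was 0.37 ± 0.20 (SE; limma adjusted p = 0.866), HQR minus SD 0.44 ± 0.20 (SE; adjusted p = 0.736) and HQR minus HR 0.38 ± 0.19 (SE; adjusted p = 1.00). These became 0.40, 0.61 and 0.39 with slide as a block. Igtp and Irgm1, its relatives, had their lowest means in HQR (3.11 ± 0.41 and 1.35 ± 0.33, SD, n = 6) and their highest in HQ (3.67 ± 0.71 and 1.66 ± 0.36, SD, n = 5).

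Tap1 carries peptides into the endoplasmic reticulum, and Psmb8 and Psmb9 are catalytic subunits of the immunoproteasome that cuts them. All 3 had higher means in HQ than in HFD and lower means in HR and in HQR than in HFD. The HQ livers had Psmb9 levels of 1.92, 3.01, 2.79, 2.93 and 3.06, and SD livers 2.17, 2.10, 2.09, 2.60 and 1.85. HR livers ran from 1.54 to 2.85 (median 2.12), HFD livers from 2.19 to 2.63 (median 2.42) and HQR livers from 1.52 to 2.99 (median 2.43). Of the HQ livers 4 were above all SD and HFD livers, and replicate 1 was below the HFD range. HQ minus HR was 0.66 ± 0.25 (SE; 95% interval 0.15 to 1.17; limma adjusted p = 1.00; 0.68 with slide as a block), and HQ minus SD 0.58 ± 0.26 (SE; adjusted p = 1.00; 0.41 with slide as a block). Tap1 means ran from -2.01 in HQR to -1.58 in HQ and Psmb8 means from 1.51 in HQR to 1.89 in HQ.

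The chemokines Cxcl9 and Cxcl10 draw activated T cells through the receptor Cxcr3, and they alone among the roles had higher means in HFD than in SD and lower means in each supplemented group than in HFD for every gene. SD livers had Cxcl10 at -2.16, -0.56, -1.28, -2.33 and -1.87, and HQ livers at -2.48, -2.24, -0.98, -0.89 and -1.72. HFD livers ran from -2.17 to 0.18 (median -1.03), HR livers from -2.18 to -1.15 (median -1.81) and HQR livers from -2.85 to -1.29 (median -2.11). HFD held the highest liver and also one as low as the other groups, so all groups overlapped. Against HFD, Cxcl10 differed by -1.04 ± 0.35 in HQR (SE; 95% interval -1.77 to -0.32; limma adjusted p = 0.987), by -0.71 ± 0.35 in HR (SE; adjusted p = 1.00) and by -0.62 ± 0.37 in HQ (SE; adjusted p = 1.00). Cxcl9 differed by -0.87 ± 0.49, -0.76 ± 0.49 and -0.32 ± 0.51 in the same order (SE; adjusted p = 0.987, 1.00 and 1.00), and HFD minus SD was 0.75 ± 0.51 for Cxcl9 (SE; adjusted p = 0.946) and 0.59 ± 0.37 for Cxcl10 (SE; adjusted p = 0.918). T cell markers averaged -2.59 to -1.73 over 7 genes in SD livers and -2.56 to -1.32 in HFD livers, and their part was not tested. All 3 supplemented comparisons share the HFD arrays.

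**Figure D4:**
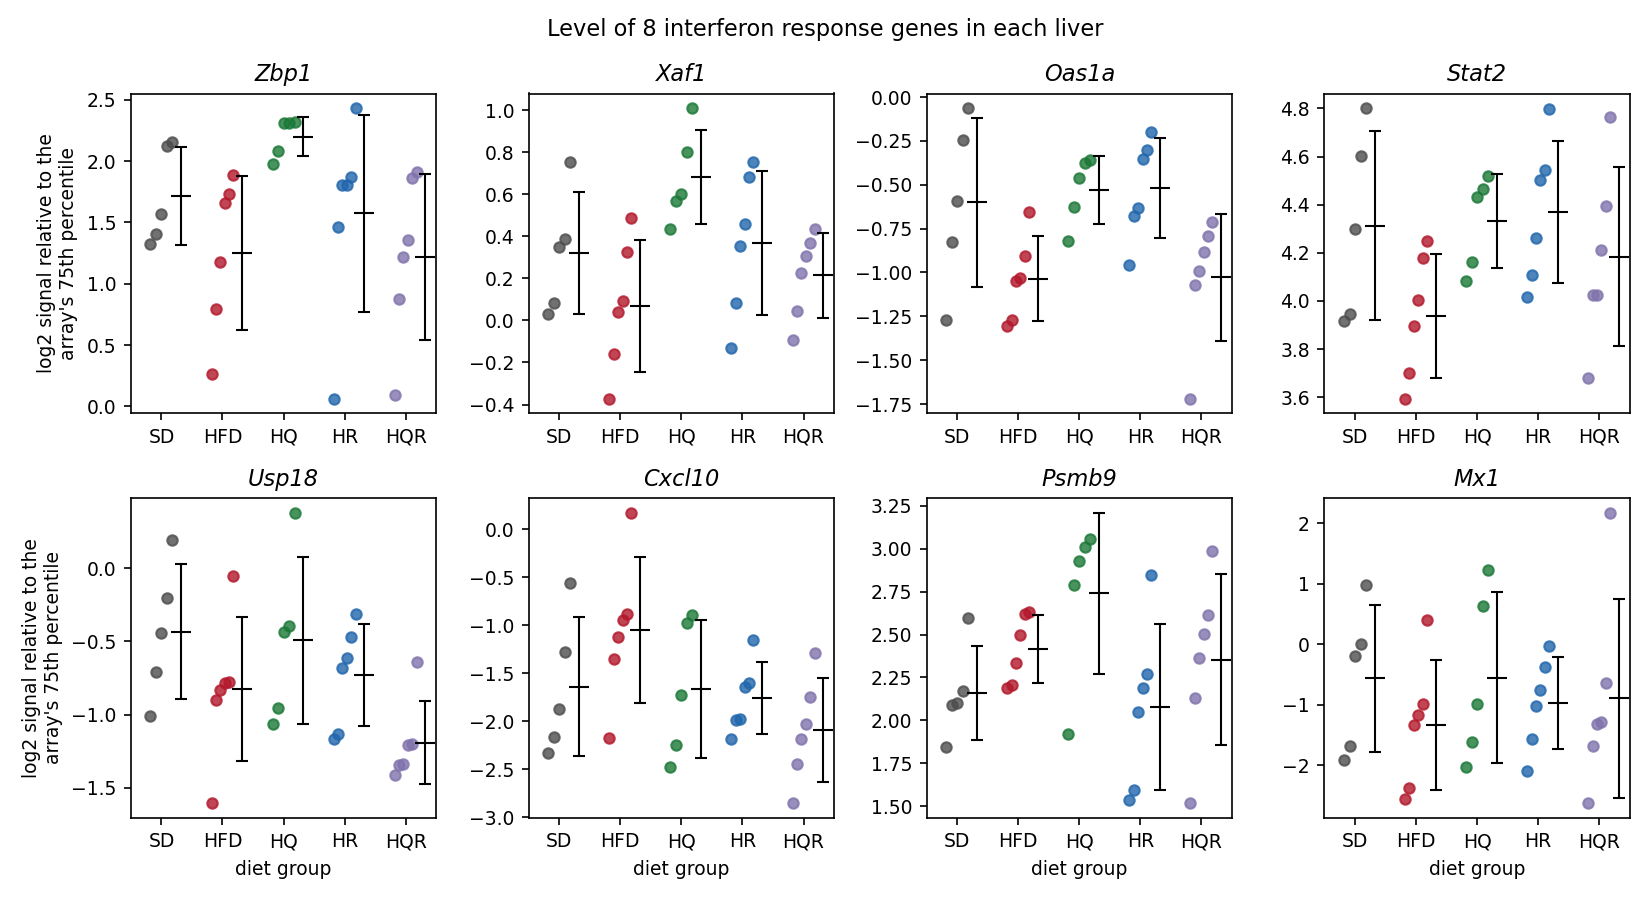
Log2 level relative to the array's 75th percentile (vertical axes) of 8 members by diet group (horizontal axis). Points are livers and bars are mean and SD, with 5 or 6 livers a group. All HQ livers for Zbp1 (1.97 to 2.32) lie above all HFD and HQR livers, the other panels show overlapping groups, and Mx1 has the widest spread.

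The co-variation of the members within diets depended on the scaling of the arrays. The deviations of each gene from its group means were correlated over the 28 livers, a description in which all points share arrays, slides and scaling. Over the 630 member pairs the median r was 0.19, beside 0.03 over all pairs of genes, and 18.1% of the pairs were over 0.5. The medians with slide as a block were also 0.19 and 0.03. Scaled to the array median, in place of the 75th percentile, they were 0.506 and 0.0535. At 0.7 or more there were 30 pairs, and at -0.7 or less 7, each with Mx1 or Ifi44. Pairs of the same role had a median of 0.21 and pairs of different roles 0.19.

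The members closest to the rest were Ifit3 (mean r 0.32 with the other 35), Oasl2 (0.31), Oas1a (0.30), Gbp3 (0.29) and Mx2 (0.27). Those farthest were Ifi44 (-0.12), Ifit2 (-0.12) and Oas3 (-0.09). Oasl2 and Oas1a had r = 0.83 with each other, Oasl2 and Ifit3 0.77, and Ifit3 and Usp18 0.76. Dhx58 and Xaf1 had 0.84. Several of these genes are known targets of ISGF3. The mean r had a median of 0.19 over the 13 members with an ISRE match (-0.09 to 0.32) and 0.14 over the 15 without (-0.12 to 0.31).

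Other close pairs joined genes known as targets of interferon gamma. Tap1 and Psmb9, whose starts are 225 bases apart in the stretch printed above, had r = 0.75 (0.76 with slide as a block). Igtp and Irgm1 had 0.74, and Cxcl9 and Cxcl10, neighbours on chromosome 5, 0.69. The antigen processing genes had r of 0.56 to 0.75 among their 3 pairs. Averaged by role, the GTPases had r = 0.68 with the chemokines, 0.57 with the IFIT proteins and 0.54 with antigen processing. Their r was 0.49 with the other effectors, 0.40 with the synthetase family and 0.34 with the sensors. The transcription factors had -0.01 with the GTPases and -0.16 with the chemokines. Bst2 and Psmb8 had the highest r of all pairs, 0.91 (0.73 with slide as a block). Most of these genes also followed the array signal at the 75th percentile. The r was 0.53 for Tap1, 0.38 for Psmb9, 0.41 for Igtp, 0.53 for Irgm1, 0.52 for Cxcl9 and 0.57 for Psmb8, but 0.18 for Cxcl10. For Stat2, Oas2, Dhx58 and Ddx58 it was -0.58, -0.59, -0.60 and -0.64. It was weaker for the 5 members closest to the rest: -0.12 for Ifit3, -0.36 for Oasl2, -0.40 for Oas1a, -0.11 for Gbp3 and -0.37 for Mx2. The part of array signal in the pairs was not tested.

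**Figure D5:**
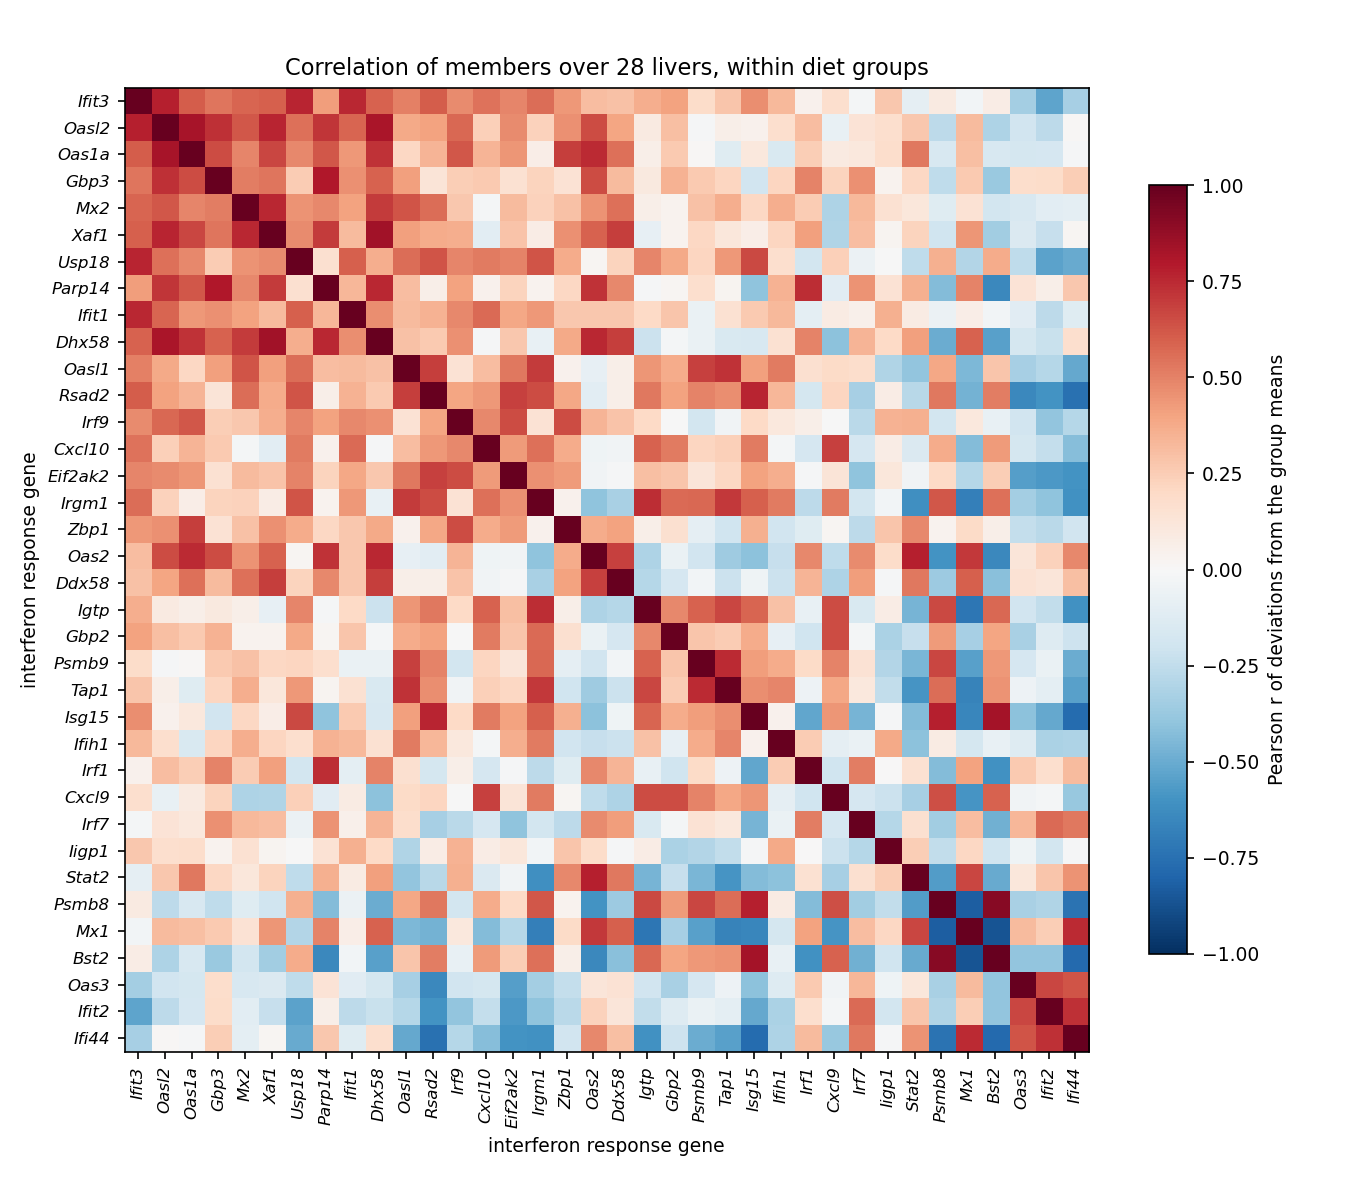
Pearson r between members over 28 livers, computed on deviations from the diet group means, with genes on both axes ordered from the highest mean r (Ifit3, 0.32) to the lowest (Ifi44, -0.12). Red is positive and blue negative: the block of red at the top left holds Ifit3, Oasl2 and Oas1a, and Mx1 and Bst2 are blue to each other (-0.86).

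Outside the 36, genes whose deviations closely followed the standardised member mean over the 28 livers included NAP007796-001, which has no gene name in the array files, Nuak2 (r = 0.77), Cmpk2 (r = 0.74) and Trim30d (r = 0.74). NAP007796-001 had r = 0.79. Cmpk2, a mitochondrial nucleotide kinase, lies beside Rsad2 and is itself induced by interferon. Blocked by slide, r was 0.79 for Nuak2 and 0.74 for Cmpk2. The member mean had r = 0.55 with the mean of the 6 endothelial markers, 0.39 with that of the 7 Kupffer markers and -0.09 with that of the 4 hepatocyte markers.

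The rest of the pathway was read from 5 lists that hold 81 measured genes. In limma's fit 0 of 81 passed in any of the 10 comparisons, where 0% to 0.114% of all genes did. At an unadjusted p under 0.05 there were 2 for HFD minus SD, where 6.14% of all genes were. There were 6 for HQ minus HFD (2.13% of all genes), 6 for HR minus HFD (4.92%) and 0 for HQR minus HFD (1.36%). Of the 10 measured interferon genes and receptors, 6 had higher means in HQ than in HFD, 6 in HR and 7 in HQR, with medians of 0.08, 0.08 and 0.06, and the interferon alpha gene Ifna2 had 1.24 ± 0.69 for HQR minus HFD (SE; limma adjusted p = 0.987). Of the 12 sensors and adaptors above interferon, such as Tlr7, 12 had higher means in HQ than in HFD, with a median of 0.22 (0.22 with slide as a block, 10 of 12 above 0).

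Irf2, which competes with Irf1 for the same sites, had the smallest p of the lists in 3 comparisons. HFD minus SD was 0.81 ± 0.25 (SE; limma adjusted p = 0.436), HR minus HFD -0.79 ± 0.24 (SE; adjusted p = 0.707) and HQ minus HFD -0.67 ± 0.25 (SE; adjusted p = 1.00), and all 3 use the HFD arrays. B2m, the light chain of class I molecules, had -0.48 ± 0.18 for HQ minus HFD (SE; adjusted p = 1.00). Ube2l6, the enzyme that hands Isg15 on, had 0.71 ± 0.31 for HFD minus SD (SE; adjusted p = 0.748). Ifi204, a DNA sensor of the p200 family, had 0.70 ± 0.22 for HR minus HFD (SE; adjusted p = 0.737), and Cmpk2 -0.41 ± 0.25 for HQR minus HFD (SE; adjusted p = 0.987). Among 42 further inducible genes, 31 had higher means in HQ than in HFD (median 0.18) and 6 had higher means in HQR than in HQ (median -0.17), and with slide as a block 28 and 11 did.

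Where a gene had a second kept probe, the probes often differed. Psmb8 probes had r = 0.98 over the 28 livers, Irgm1 probes 0.78 and 1 other Parp14 probe 0.73. Irf9 probes had -0.31, Ifih1 probes -0.07, Ifi44 probes 0.04 and Mx1 probes 0.14. For Mx1 the other probe gave -0.62 for HQ minus HFD, against 0.78 for the probe used, so no direction is given for Mx1.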

How the data were processed

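Total RNA of 28 livers was hybridised to 1-colour Agilent arrays. The deposited intensity of each spot is the processed signal of the scanner software, background-subtracted, per the file headers. A deposited value table, named as a score since its scale is unstated, followed log2 of those intensities and was used only as an alternative. Here log2 intensities without rejected or control spots were averaged per probe, and each array's 75th percentile was subtracted. Of 41174 probes, 32078 well above background on at least 5 arrays were kept, and the brightest gave 1 value for each of 21851 genes. Differences were tested with limma 3.58.1 (R 4.3.3) on all 28 arrays, with Benjamini-Hochberg adjustment over all genes and a threshold of 0.05. The fit was tested on simulated data. Slide came from the headers and was used as a block in an alternative fit. The members, roles, pathway lists and markers were chosen with earlier results of these data known. The rule for named genes took the 3 members with the smallest p in each comparison, the 2 such pathway genes in HFD minus SD and in each supplemented group minus HFD, the 5 members with the highest and the 3 with the lowest mean correlation, and the 5 other genes most like the member mean. Of these, 1 is not reported here. Other values and pairs were picked after they were seen. The number of arrays limits the precision. Replicate numbers were checked for pairing: in HFD against SD every same-numbered pair had r over 0.1 (0.217 to 0.698, 5 pairs), and the median member difference with the replicate block was -0.04.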

Additional observations from a re-analysis of the deposited data

Results flagged for a closer look

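In 5 of 185 groups of livers, 1 liver stood apart from the others by Dixon's test, where chance alone gives 9.25. Oas1a was lowest in HQR replicate 4, at -1.72 with the nearest liver at -1.07. Oas3 was lowest in HQR replicate 6, at -6.82 with the nearest at -4.26, close to background. Usp18 was highest in HQR replicate 5, at -0.64 with the nearest at -1.20. Mx2 was highest in HR replicate 3, at 3.04 with the nearest at 2.14. Psmb9 was lowest in HQ replicate 1, at 1.92 with the nearest at 2.79.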

How the results depend on the processing

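No member passed limma's test under any alternative run, and the lowest adjusted p of a named member over them was 0.119, for Usp18 in HQR minus SD. Of 53 results, 3 moved under 1 alternative each. The median member difference of HR minus HFD, 0.03, changed sign, to -0.08 with slide as a block. With slide as a block the median member difference was 0.038 for HQ minus HFD and -0.21 for HQR minus HQ. With scaling to the array median the median pairwise member correlation was 0.506 (0.0535 over all gene pairs), and the cause was not tested. With the replicate block the median difference was -0.04 for HFD minus SD and 0.19 for HQ minus HFD, and no call changed. Leaving out each array in turn gave medians of -0.22 to -0.04 for HFD minus SD, 0.18 to 0.33 for HQ minus HFD, -0.05 to 0.09 for HR minus HFD, -0.15 to -0.05 for HQR minus HFD and -0.49 to -0.29 for HQR minus HQ. Oas3 was well above background in 15 livers, which limits what its values show.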
